A study of Homo sapiens with 4 samples.

Results

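Genes that encode the cytokine TWEAK, its receptor Fn14 and the adaptors of the receptor were examined for H3K27ac, an acetyl mark of active promoters and enhancers. The 10 genes were TNFSF12 (TWEAK), TNFSF13, TNFRSF12A (Fn14), CD163, TRAF1, TRAF2, TRAF3, TRAF5, TRAF6 and BIRC2. They were chosen by name from 19962 protein-coding genes and not by a rule on measured values, though earlier results of these data were known. For each gene, peaks were taken that came within 1 kb of the start site of its canonical transcript, and peaks within 50 kb of its gene body. The peaks were called from ChIP-seq, the sequencing of DNA bound to immunoprecipitated chromatin, of MDA-MB-231 and Hs578T cells, which are established human lines of triple-negative breast cancer. Each line has 2 biological replicates, and each of the 4 libraries has its own list of peaks. Cells of all 4 libraries were grown in DMEM with 10% FBS, starved in optimem for 8 h, given 10 ng/ml TWEAK for 48 h with a fresh dose after 24 h, and, per the labels, kept without TWEAK for 72 h. In the study's own text the time without TWEAK is longer. Untreated or TWEAK-exposed libraries were not analysed here, so every value describes washed-out cells and no effect of TWEAK was measured.

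TWEAK is a member of the TNF superfamily of ligands, made as a membrane protein and released by cleavage, and Fn14 is the small transmembrane receptor that binds it. Fn14 has no enzyme activity of its own. It recruits TRAF adaptor proteins, and through them the ubiquitin ligase cIAP1, encoded by BIRC2, which opens the way to NF-κB and stress kinase signalling. In the non-canonical NF-κB pathway, TRAF3, TRAF2 and cIAP1 keep the kinase NIK at a low level until the receptor draws them away.

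On chromosomes 1 to 22 and X, only 209 peaks were listed for MDA-MB-231 replicate 1, and none of them lay in the window of any of the 10 genes, beside 1.61% of all protein-coding genes with a peak that near. The other 3 lists, called the large lists, held 43353 peaks (MDA-MB-231 replicate 2), 46330 peaks (Hs578T replicate 1) and 44920 peaks (Hs578T replicate 2). Between 91.2% and 94.2% of the peaks of the shorter list of a pair overlapped the longer one among these 3, and the MDA-MB-231 list was about as close to the Hs578T lists (Jaccard index 0.759 and 0.770) as these were to each other (0.780). The peak numbers of MDA-MB-231 replicate 1 ran to 3129, above the 318 peaks listed on all sequences, so whether that list is complete is not known, and the overlap of the large lists does not set the MDA-MB-231 label apart. Values given for MDA-MB-231 are those of the list with that label. In all 3 large lists, 5 of 5 mesenchymal marker genes (VIM, AXL, CD44, FN1, ZEB1) and 0 of 3 luminal ones (ESR1, GATA3, FOXA1) had a promoter peak within 1 kb of the start, beside 55.6% of all protein-coding genes. Of 3 endothelial genes, CDH5 and KDR had none, and PECAM1 had one of 7148 bp in MDA-MB-231 replicate 2, one of 374 bp in Hs578T replicate 1 and none in Hs578T replicate 2. Read numbers were not used here, so depth is unknown. With 2 lists per line, no exact two-sided permutation test can give a p below 0.333, and lines were therefore not tested against each other. Values are the authors' fold enrichment over background for the strongest promoter peak, its width, and its percentile among the promoter peaks of all marked protein-coding genes of the same list. Sizes of fold enrichment are given per list and are not compared between lists.

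Each of the 3 large lists had a promoter peak at 9 of the 10 genes, all but CD163. A promoter peak was common in these lists: 58.1%, 58.2% and 56.4% of all protein-coding genes had one, and 55.6% had one in all 3. In the small list 0 of the 10 genes had a promoter peak, beside 0.0601% of all genes, so that list says nothing about them. Among the 9 marked genes the percentiles ran from the bottom to the very top of the range. By mean percentile over the large lists, TNFRSF12A (99.9) and BIRC2 (98.7) came first, followed by TRAF1 (85.0), TRAF2 (56.5), TNFSF13 (48.3), TRAF6 (42.6), TRAF3 (24.7), TRAF5 (14.9) and TNFSF12 (5.26). TRAF2, TNFSF13 and TRAF6 overlapped in their ranges over the lists, as did TRAF6 and TRAF3, whereas the receptor, BIRC2, TRAF1, TRAF5 and the ligand each had a range of their own. The median percentile of the 9 genes was 45.6, 50.3 and 48.2, near the middle of all marked genes.

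**Figure D1:**
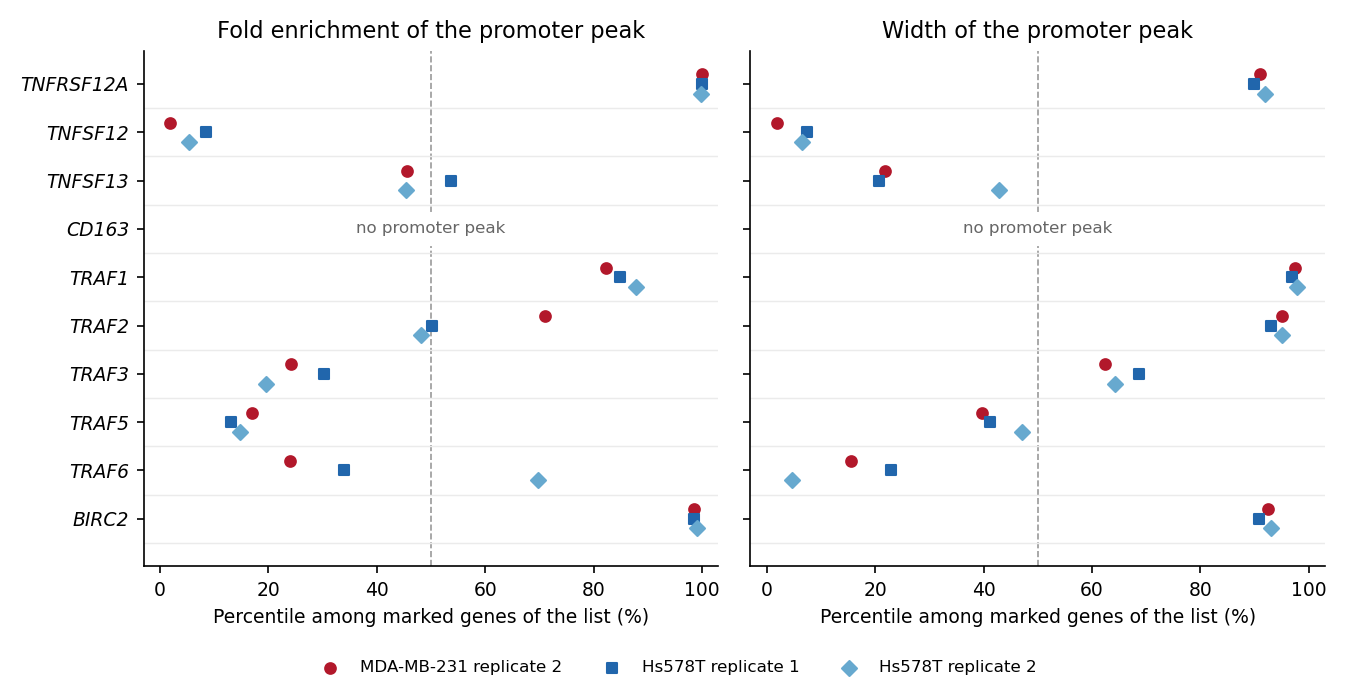
Percentile of the fold enrichment (left) and of the width (right) of the strongest promoter peak of each gene, among all marked protein-coding genes of the same list, in %. Each point is 1 list, the dashed line is the median of the marked genes, and CD163 had no promoter peak. TNFRSF12A and BIRC2 lie at the right edge for fold and TNFSF12 at the left edge for both measures.

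TNFRSF12A lies on the plus strand of chromosome 16 (hg38, chr16:3018445-3022383, canonical start at 3020368). At its promoter the fold enrichment was 41.5 in MDA-MB-231 replicate 2, 41.0 in Hs578T replicate 1 and 29.8 in Hs578T replicate 2. All 3 values were near the top of their list, at percentiles that round to 99.9. Among distinct promoter peaks the rank by fold was 8 of 10119, 6 of 10133 and 14 of 9823. The peak was 4667, 4809 and 4886 bp wide, and its −log10 q was 210, 262 and 133. Width was high but less extreme than fold, at the percentiles 91.0, 89.8 and 91.9. The peak began 500, 608 and 595 bp before the start site and ran to 4166, 4200 and 4290 bp after it, past the end of the gene. It therefore also covered the start sites of HCFC1R1 and THOC6, which lie 3574 and 3667 bp from that of TNFRSF12A, and the share of each of the 3 genes in the signal cannot be told apart. A promoter peak that also held the start of another protein-coding gene was found for 23% of all marked genes in MDA-MB-231 replicate 2, and for 23.2% and 23% in the Hs578T lists. The same stretch held 4 matches of the AP-1 letters and 3 of the NF-κB motif in every large list, with the letters as given beside the sequences of CD163 and the TRAF genes.

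The receptor's own peak was the strongest of its window and held about as many covered bases as the rest of it. Peaks covered 10301, 10824 and 9361 bp of the window of 103939 bp, or 9.91%, 10.4% and 9.01%, and the peak at the start site made up 45.3%, 44.4% and 52.2% of the covered bases. The remaining 6, 5 and 4 peaks covered 5.42%, 5.79% and 4.31% of the window. Neighbours here are other protein-coding genes whose canonical start lies in the window. Of 11 neighbouring protein-coding genes, 5 were marked in each of the large lists: HCFC1R1, THOC6, PKMYT1, PAQR4 and the gene ENSG00000289281. IL32 had a weak one in MDA-MB-231 replicate 2 (fold 3.62) and Hs578T replicate 1 (3.92). The claudin genes CLDN6 and CLDN9, whose canonical starts are 2185 and 7445 bp away, and MMP25, BICDL2 and GREP1 had none. Another annotated start of CLDN6 did lie within 1 kb of the receptor's peak in each large list. Upstream of the receptor's own peak the nearest peak ended 10105, 14474 and 14952 bp before the start site, and downstream the next began at 38596, 38642 and 38686 bp.

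TNFSF12, the gene of the ligand TWEAK, lies on chromosome 17 (chr17:7548508-7557890, plus strand, start at 7549058). The peak at its promoter reached a fold enrichment of 3.15, 3.63 and 3.20 and a width of 328, 663 and 567 bp. Its −log10 q was 2.15, 4.06 and 2.20. The ligand's peak was low among the promoter peaks of each list, at the percentiles 1.95, 8.43 and 5.41 for fold and 1.81, 7.36 and 6.53 for width. Among all peaks of a list its fold was at the percentiles 13.3, 30.2 and 19.7. The same small peak also held the start of the readthrough gene TNFSF12-TNFSF13, 41 bp away. Peaks covered 3.50%, 7.23% and 13.9% of the ligand's gene body, compared with 63.9%, 66.6% and 66.3% of the receptor's. The ligand's own peak accounted for 3.50%, 7.07% and 6.04% of its body. The other 15 bp in Hs578T replicate 1 and 734 bp in Hs578T replicate 2 belonged to the promoter peak of TNFSF13. All the cover of the receptor's body came from the peak at its start, which also holds the starts of HCFC1R1 and THOC6. The bodies differ in length: the ligand's is 9383 bp and the receptor's 3939 bp, shorter than that peak.

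Set against each other within a list, the receptor's promoter peak had 13.2 times the fold enrichment of the ligand's in MDA-MB-231 replicate 2, 11.3 times in Hs578T replicate 1 and 9.32 times in Hs578T replicate 2. It was 14.2, 7.25 and 8.62 times as wide. The order of the pair was the same in 3 of 3 large lists for fold, width and −log10 q. As the receptor's peak holds 3 gene starts and the ligand's 2, these ratios compare loci and not transcripts.

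TNFSF13 encodes APRIL, another TNF superfamily ligand, and starts 9692 bp downstream of TNFSF12 (chr17:7558292-7561608, plus strand). Its own peak, separate from that of the ligand, had a fold enrichment of 8.59, 8.60 and 6.44 and was 1125, 1139 and 1609 bp wide. These are middling values, at the fold percentiles 45.6, 53.7 and 45.4, and above the ligand's percentile in every large list. In Hs578T replicate 2 the peak lay almost wholly before the start site, from 1593 bp upstream to 15 bp downstream, whereas it ran from 847 bp upstream to 277 bp downstream in MDA-MB-231 replicate 2.

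The shared locus of these ligands is dense with genes, and most of the acetylation in it belonged to neighbours. Peaks covered 19927, 20684 and 19559 bp of the TNFSF12 window of 109383 bp, or 18.2%, 18.9% and 17.9%. The ligand's own peak supplied 1.65%, 3.21% and 2.90% of the covered bases, and peaks at the starts of other protein-coding genes the rest. All 8 neighbouring protein-coding genes (TNFSF12-TNFSF13, TNFSF13, SENP3, SENP3-EIF4A1, EIF4A1, CD68, MPDU1 and SOX15) were marked in the 3 large lists. The strongest peak of the window, at MPDU1, a gene of glycosylation, reached a fold of 19.0, 14.4 and 12.4. EIF4A1, which encodes a helicase of translation initiation, and CD68, a macrophage gene, lay under 1 peak of 9487 and 9010 bp in MDA-MB-231 replicate 2 and Hs578T replicate 1, and under 2 separate peaks in Hs578T replicate 2. Of the 6 myeloid marker genes checked, CD68 alone had a promoter peak, and CSF1R, PTPRC, CD14, SPI1 and ITGAM had none. On the other side, no peak lay between the ligand's own peak and a point 63070, 62784 and 62731 bp upstream of its start.

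**Figure D2:**
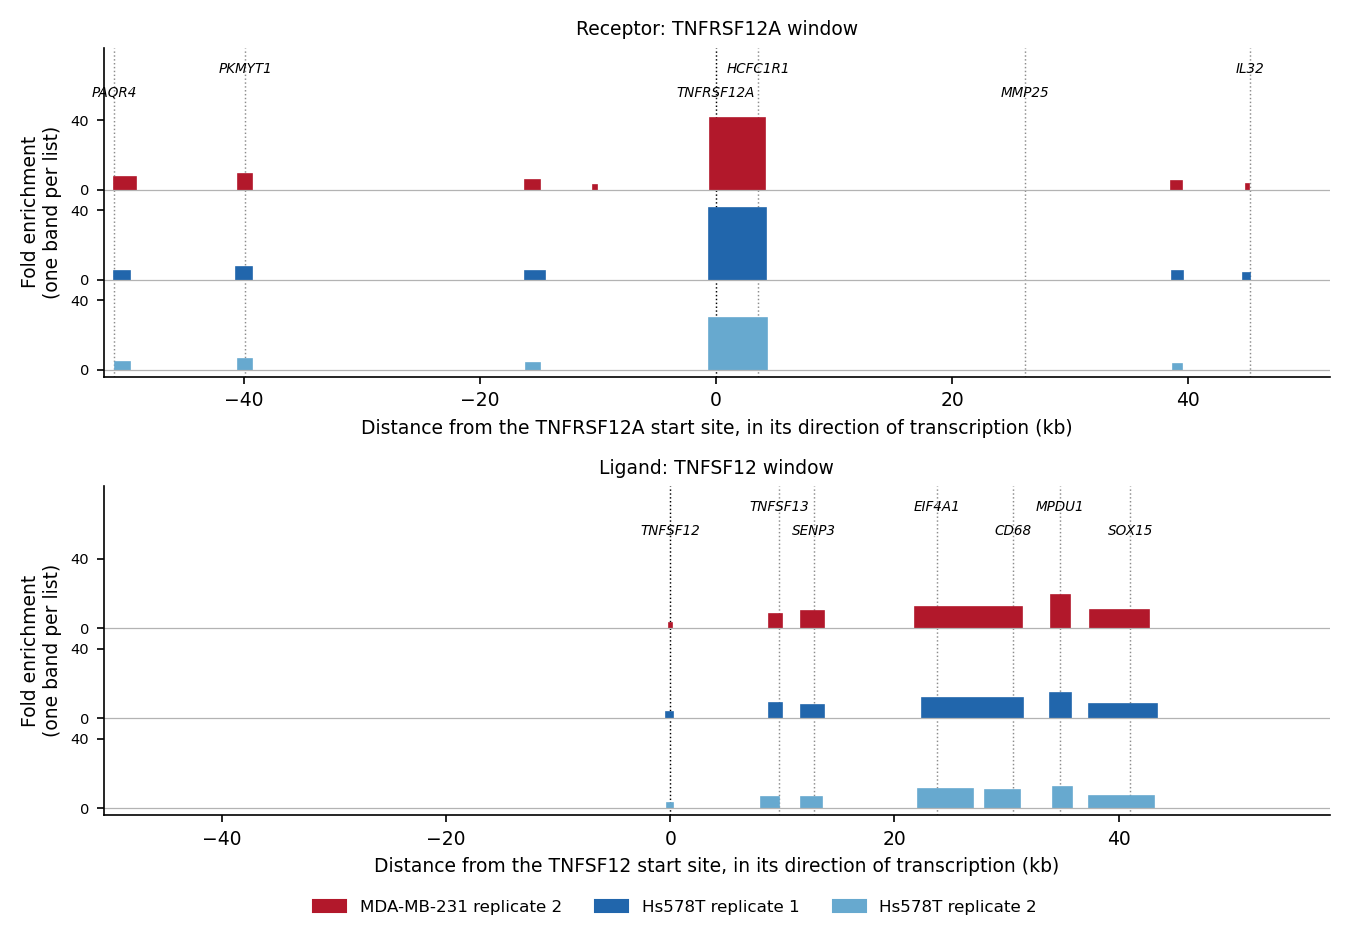
Peaks in the windows of TNFRSF12A (top) and TNFSF12 (bottom), by distance from the start site in kb. The height of a box is the fold enrichment of the peak, with 1 band and colour per large list, and dotted lines are start sites of named genes. The receptor has a tall peak at 0 and 4 to 6 lower ones in the window, and the ligand a low one at 0 with taller neighbours downstream.

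CD163, a scavenger receptor of macrophages that has been described as another receptor for TWEAK, was the gene without a promoter peak. It lies on the minus strand of chromosome 12 (chr12:7470811-7503893). The nearest peak upstream of its start was 301323, 356438 and 356399 bp away, and the nearest downstream began at 69487, 69573 and 69630 bp, beyond the end of the gene. That downstream peak had its midpoint in an intron of CD163L1, covered exon bases too, and was the only one in the window. It was 2034, 1741 and 1883 bp wide with a fold of 6.07, 8.47 and 6.86. It covered 1.53%, 1.31% and 1.41% of the window, at the percentiles 27.8, 23.9 and 26.6 of all genes, while the gene body held no covered base. CD163 stayed without a promoter peak under every alternative setting.

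Sequence is given for 1 promoter without a peak, a pair of promoters with one, and the intronic peaks of the TRAF genes, and how sequence relates to the size of a peak was not tested. Promoter sequences are from RefSeq on GRCh38.p14, which had entries for 8 of the 10 genes, and TNFSF12 and TNFRSF12A had none. Stretches from peaks were read from hg38. All are written 5′ to 3′ on the strand of the gene, in lower case, and none contains an annotated exon base. Capitals mark matches of the AP-1 letters TGACTCA, or TGAGTCA, which is the same site on the other strand, and of the NF-κB consensus motif on either strand. AP-1 letters were found in 4.20% and the NF-κB motif in 5.21% of 35116 RefSeq promoters. A match is a run of letters, not a measured binding site. The CD163 stretch (chr12:7503894-7504027, just upstream of the first exon) is poor in G and C (31.3%) and has no capitals, the TRAF1 promoter (chr9:120926797-120927046) has 54.0% GC and no capitals, and the TRAF3 promoter (chr14:102777199-102777448) has 86.4% GC, the percentile 99.8 of all promoters, with 1 NF-κB match.
CD163 promoter part, minus strand: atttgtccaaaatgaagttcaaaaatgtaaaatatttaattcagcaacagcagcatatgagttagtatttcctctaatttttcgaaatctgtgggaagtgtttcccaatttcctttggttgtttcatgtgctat
TRAF1 promoter, minus strand: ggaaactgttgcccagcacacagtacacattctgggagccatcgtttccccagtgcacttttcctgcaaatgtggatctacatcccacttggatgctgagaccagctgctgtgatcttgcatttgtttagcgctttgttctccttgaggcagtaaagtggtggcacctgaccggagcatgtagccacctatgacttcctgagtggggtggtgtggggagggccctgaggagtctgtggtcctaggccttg
TRAF3 promoter, plus strand: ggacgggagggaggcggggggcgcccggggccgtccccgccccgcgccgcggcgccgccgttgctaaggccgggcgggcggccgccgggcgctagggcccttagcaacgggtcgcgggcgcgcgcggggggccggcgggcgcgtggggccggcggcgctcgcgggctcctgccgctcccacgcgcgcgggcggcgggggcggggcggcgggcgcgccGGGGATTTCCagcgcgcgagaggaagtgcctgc

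TRAF1, an adaptor that lacks the RING domain of its relatives and is itself a well-known NF-κB target gene, had the widest promoter peak of the 10 genes in each large list. The gene is on the minus strand of chromosome 9 (chr9:120902393-120929173). Its promoter peak measured 8251, 8564 and 8616 bp, with a fold of 15.4, 14.9 and 13.0. Both measures were high, at the width percentiles 97.5, 96.8 and 97.7 and the fold percentiles 82.4, 84.9 and 87.8. In the Hs578T lists the fold percentile was 86.4 ± 2.05 (SD, n = 2). The peak began 5687, 5756 and 5679 bp before the canonical start, held 4 AP-1 and 4 NF-κB matches in each large list, and contained no canonical start of another protein-coding gene. It also held a further RefSeq promoter of TRAF1 itself, whose start is 2375 bp upstream and whose 250 bases have 70% GC. The TRAF1 promoter sequence shown above is that before the canonical start. Around TRAF1 peaks covered 18.4%, 20.1% and 18.6% of the window, at or above the percentile 94.9 of all genes. The strongest peak of the window was not TRAF1's own but that at PHF19, a Polycomb-associated gene whose start is 49608 bp away, with a fold of 31.0, 35.3 and 23.7.

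Upstream of TRAF1, 2 peaks with midpoints in introns of the complement gene C5 were called in all 3 large lists. The nearer lay 7894, 8289 and 8266 bp before the TRAF1 start, with a fold of 8.61, 9.72 and 8.72. Within the gene a weaker intronic peak was shared by the 3 lists, with a fold of 3.26, 3.91 and 4.40 and a width of 1575, 1833 and 1171 bp. It held 2 AP-1 matches, shown here with their surroundings (chr9:120910155-120910221 and chr9:120909880-120909946, minus strand).
TRAF1 intron, 16605 bp after the start: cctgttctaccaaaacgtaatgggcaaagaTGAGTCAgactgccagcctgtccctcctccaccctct
TRAF1 intron, 16880 bp after the start: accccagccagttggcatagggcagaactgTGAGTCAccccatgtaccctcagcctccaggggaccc

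TRAF2, the adaptor that brings cIAP1 to the receptor complex, lies on the plus strand of the same chromosome (chr9:136881912-136926607). Its promoter peak had a fold of 12.6, 8.15 and 6.70 and a width of 6154, 5890 and 6198 bp. Width was near the top of each list (percentiles 95, 93.1 and 95.1), but fold was not (71.0, 50.3 and 48.2). The fold percentile of the MDA-MB-231 list lay above both Hs578T values (49.2 ± 1.45, SD, n = 2), and with 1 usable MDA-MB-231 list that difference was not tested. The peak also contained the annotated start of the microRNA gene MIR4479. The annotated TRAF2 gene begins upstream of its canonical start (136886516), inside the same peak in each large list.

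A stronger peak lay inside the TRAF2 gene, away from every annotated start. It ran from 12147 to 17472 bp after the start in MDA-MB-231 replicate 2, from 12420 to 17810 bp in Hs578T replicate 1 and from 12055 to 17871 bp in Hs578T replicate 2. Its fold of 21.7, 21.5 and 16.0 exceeded that of the TRAF2 promoter peak and of every other peak of the window in each large list, and its midpoint was intronic. It held 3 NF-κB matches and no AP-1 match in each list. The stretch with a pair of NF-κB matches follows (chr9:136902538-136902639), in which the same 10 letters occur at both places.
TRAF2 intron, 16022 to 16123 bp after the start: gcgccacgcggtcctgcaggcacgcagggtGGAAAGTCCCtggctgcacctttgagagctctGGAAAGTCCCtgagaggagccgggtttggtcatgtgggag
Of the 7 neighbouring protein-coding genes of TRAF2, 5 had a promoter peak in all 3 large lists (AJM1, PHPT1, EDF1, FBXW5 and C8G), and MAMDC4 and LCN12 had none. Peaks covered 16.6%, 17.1% and 17.0% of its window.

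TRAF3, the adaptor that keeps NIK low in resting cells, had a modest promoter peak and a long, thinly marked body. The gene spans chr14:102777449-102911500 on the plus strand. Its promoter peak had a fold of 5.95, 5.92 and 4.35 and a width of 2170, 2569 and 2256 bp. By fold it stood in the lower part of each list (percentiles 24.2, 30.3 and 19.5), and by width somewhat above the middle (62.3, 68.6 and 64.3). No other canonical protein-coding start was marked in its window, where that of AMN was the only one. Peaks covered 1.84%, 2.92% and 2.63% of the gene body and 1.86%, 2.68% and 2.22% of the window, the latter at the percentiles 31.5, 37.2 and 35.1.

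The TRAF3 body held 4 weak intronic peak regions. The first and second from the start were called in all 3 large lists, the third in MDA-MB-231 replicate 2 and Hs578T replicate 1, and the fourth in both Hs578T lists. The strongest was the second, with a fold of 4.10, 6.45 and 4.17, which in Hs578T replicate 1 exceeded that of the promoter peak. All 4 regions held the AP-1 letters in at least 2 lists, and the second peak in MDA-MB-231 replicate 2, only 285 bp wide, ended before its match. These letters are common: they occurred in 45.8%, 45.9% and 44.3% of all peaks in the width range of the window peaks. That range reached 11747 bp in MDA-MB-231 replicate 2, while the widest of these TRAF3 peaks had 1224 bp. The shares are therefore not for peaks of like width. The second region also held 1 NF-κB match in all 3 large lists (chr14:102795400-102795409). The 4 AP-1 matches that lay in peaks of at least 2 lists are shown (chr14:102786950-102787016, chr14:102795613-102795675, chr14:102805512-102805578 and chr14:102824895-102824961). A further AP-1 match in the second region, 18292 bp after the start (chr14:102795741-102795747), lay in the peak of Hs578T replicate 2 alone.
TRAF3 intron, 9531 bp after the start: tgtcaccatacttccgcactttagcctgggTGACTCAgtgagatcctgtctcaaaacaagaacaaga
TRAF3 intron, 18194 bp after the start: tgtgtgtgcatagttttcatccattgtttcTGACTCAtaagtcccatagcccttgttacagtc
TRAF3 intron, 28093 bp after the start: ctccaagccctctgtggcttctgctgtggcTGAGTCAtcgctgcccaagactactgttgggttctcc
TRAF3 intron, 47476 bp after the start: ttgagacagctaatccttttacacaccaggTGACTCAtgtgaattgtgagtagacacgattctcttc

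TRAF5, an adaptor closely related to TRAF2 and TRAF3, had the weakest promoter peak of the TRAF genes by mean percentile. On chromosome 1 (chr1:211326615-211374946, plus strand) its fold was 5.14, 4.17 and 3.99, with a width of 1547, 1656 and 1726 bp. The fold percentiles of 16.9, 13.1 and 14.7 were low, and the Hs578T lists differed little (13.9 ± 1.14, SD, n = 2). The stronger peaks of this window lay beyond the gene. At the start of the long noncoding RNA gene LINC00467, 55356, 55284 and 55413 bp downstream, the fold was 21.1, 28.5 and 26.7, and at the pseudogene SNX25P1, 89213, 89005 and 89066 bp downstream, it was 22.5, 15.1 and 10.6. No canonical start of another protein-coding gene lay within 50 kb of the gene body.

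TRAF6, which serves Toll-like and interleukin-1 receptors besides members of the TNF receptor family, was the gene whose promoter percentile varied most. It lies on the minus strand of chromosome 11 (chr11:36483769-36510272). The promoter peak had a fold of 5.92, 6.32 and 9.16 and a width of 943, 1202 and 474 bp. The fold percentile was 24.0, 33.9 and 69.8 and the width percentile 15.5, 22.9 and 4.70, so that Hs578T replicate 2 had the highest percentile for fold and the lowest for width. The fold percentile of Hs578T was accordingly 51.8 ± 25.3 (SD, n = 2), the largest SD among the marked genes. A broader peak lay outside the gene at 53365, 53416 and 53202 bp after the start, over PRR5L, with a fold of 10.7, 10.0 and 8.41 and a width of 4297, 4739 and 5089 bp. Upstream, no peak was called within 993 kb of the start in any large list. Within 1 kb of the TRAF6 promoter peak lay an annotated start of the protein-coding gene RAG1, in each large list. An intronic peak shared by the 3 lists (fold 4.10, 4.24 and 3.62) held 1 AP-1 match (chr11:36500631-36500697, minus strand).
TRAF6 intron, 9605 bp after the start: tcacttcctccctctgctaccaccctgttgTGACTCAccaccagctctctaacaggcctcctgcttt

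BIRC2 encodes cIAP1, the ubiquitin ligase that TRAF2 brings to the receptor. The gene lies at chr11:102347211-102378670 on the plus strand. Its promoter peak had a fold of 27.8, 26.3 and 22.2, a width of 5098, 5062 and 5231 bp and a −log10 q of 168, 208 and 119. Next to TNFRSF12A it was the highest promoter of the 10 genes in each large list, at the fold percentiles 98.5, 98.6 and 99.0. No other canonical protein-coding start lay in the peak, although a long noncoding RNA gene, ENSG00000288833, starts within 1 kb of it. It extended 3729, 3641 and 3383 bp upstream but at most 1847 bp downstream, where peaks covered 4.36%, 4.53% and 5.88% of the gene body.

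The neighbour of BIRC2 is its paralogue BIRC3, which encodes cIAP2 and is a familiar NF-κB target, with a start 29730 bp upstream. BIRC3 lay under a separate, broad and lower peak of 11747, 8127 and 8118 bp with a fold of 6.72, 6.31 and 6.07. The fold of BIRC2 was higher than that of BIRC3 in each large list, while the peak of BIRC3 was wider. Farther upstream, a further peak, merged over the lists at chr11:102305366-102308250, had a fold of 12.0, 15.1 and 13.7. Peaks covered 15.3%, 15.2% and 14.1% of the BIRC2 window.

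**Figure D3:**
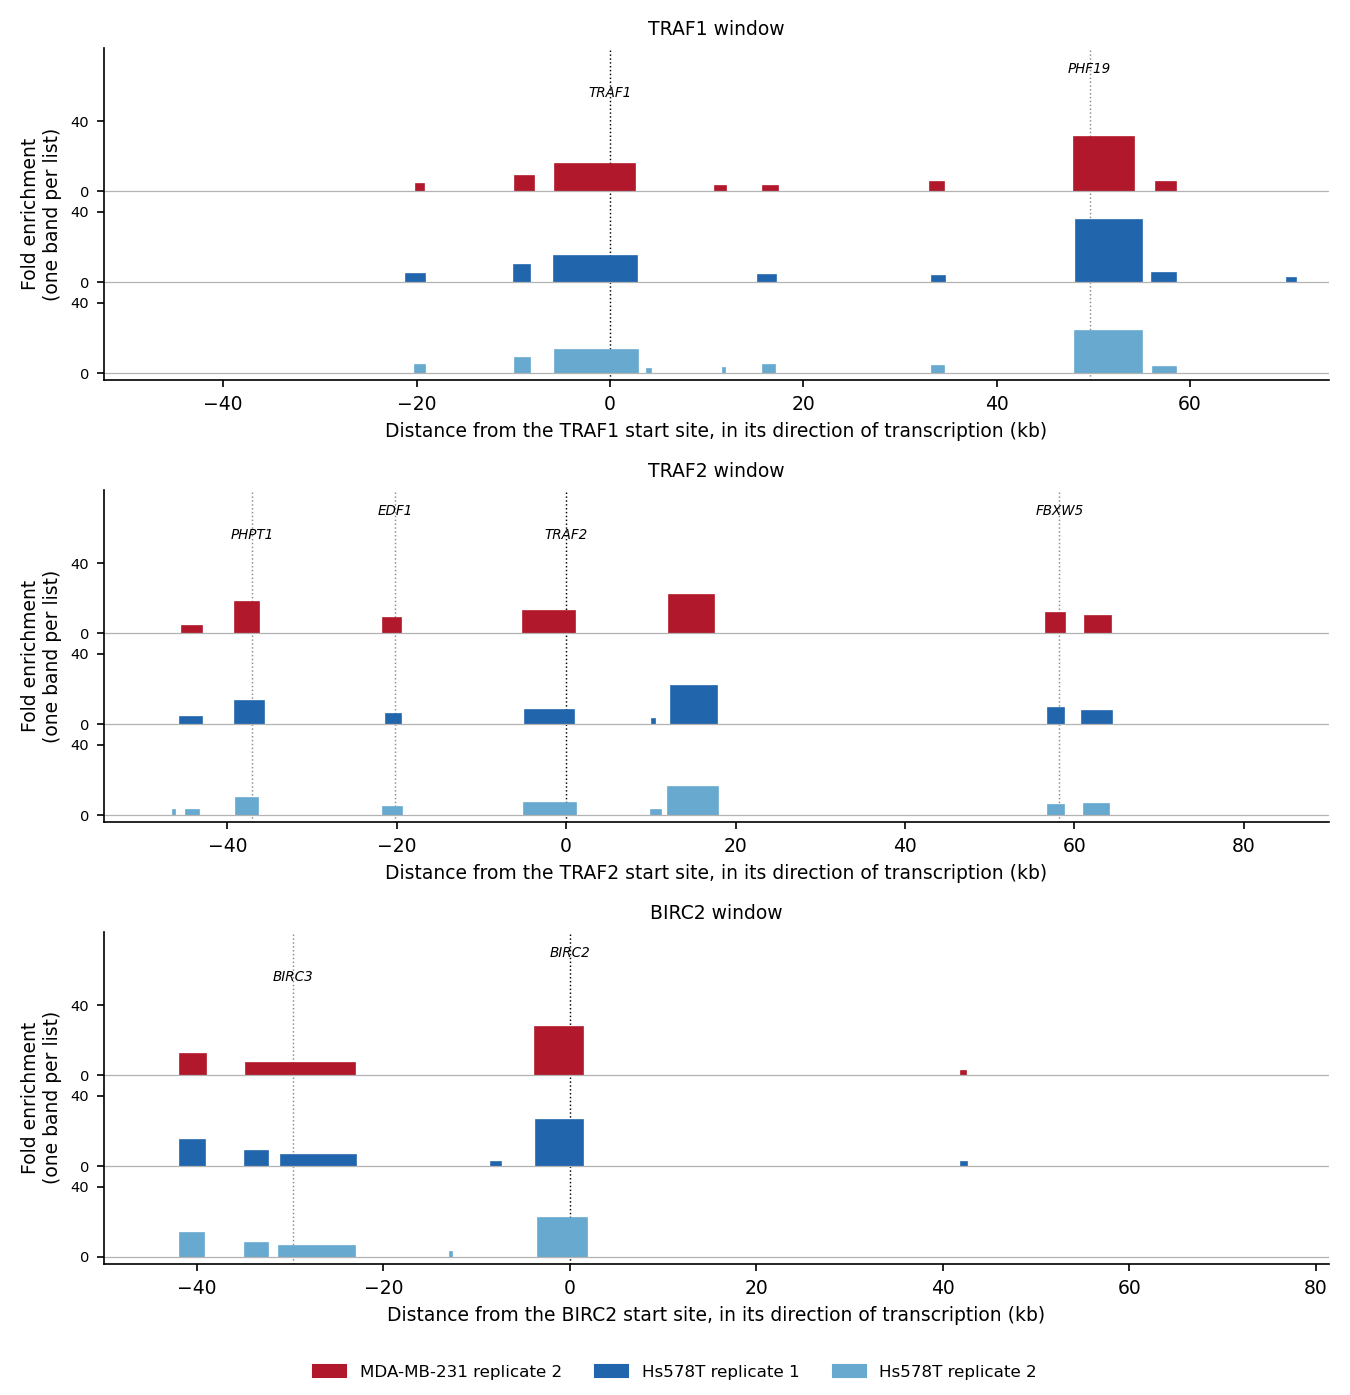
Peaks in the windows of TRAF1, TRAF2 and BIRC2 by distance from the start site in kb. The height of a box is the fold enrichment, with 1 band and colour per large list, and dotted lines are start sites of named genes. TRAF2 has a taller peak inside the gene than at its start, TRAF1 a wide peak at its start and a taller one at PHF19, and BIRC2 a tall peak at its start with the lower, wider peak of BIRC3 upstream.

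Over all 10 windows the large lists held 46, 50 and 49 distinct peaks, where the overlapping windows of TNFSF12 and TNFSF13 were counted once. At least 1 peak was present in every window in these lists, as it was for 86.9%, 87.1% and 87% of all protein-coding genes. The covered share of the windows had a median of 12.6%, 12.8% and 11.6%, compared with 3.78%, 4.17% and 3.82% over all protein-coding genes. Unlike the count of peaks, this median takes all 10 windows. The highly covered locus of TNFSF12 and TNFSF13 therefore enters it under both names, with the same covered bases. High cover was also found without a high promoter peak. TNFSF12 had the lowest promoter fold of the marked genes among the 10. Its window was at the percentile 94.9, 93.9 and 94.6 of all genes for cover, and that of TNFRSF12A at 80.7, 79.1 and 77.7. The windows hold the canonical starts of between 0 and 11 other protein-coding genes. Of the 29 distinct neighbours 19 had a promoter peak in the 3 large lists, or 65.5%, beside 55.6% of all protein-coding genes. Among these, HCFC1R1, THOC6 and TNFSF12-TNFSF13 were marked by the promoter peak of an examined gene, so they are not separate cases.

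**Figure D4:**
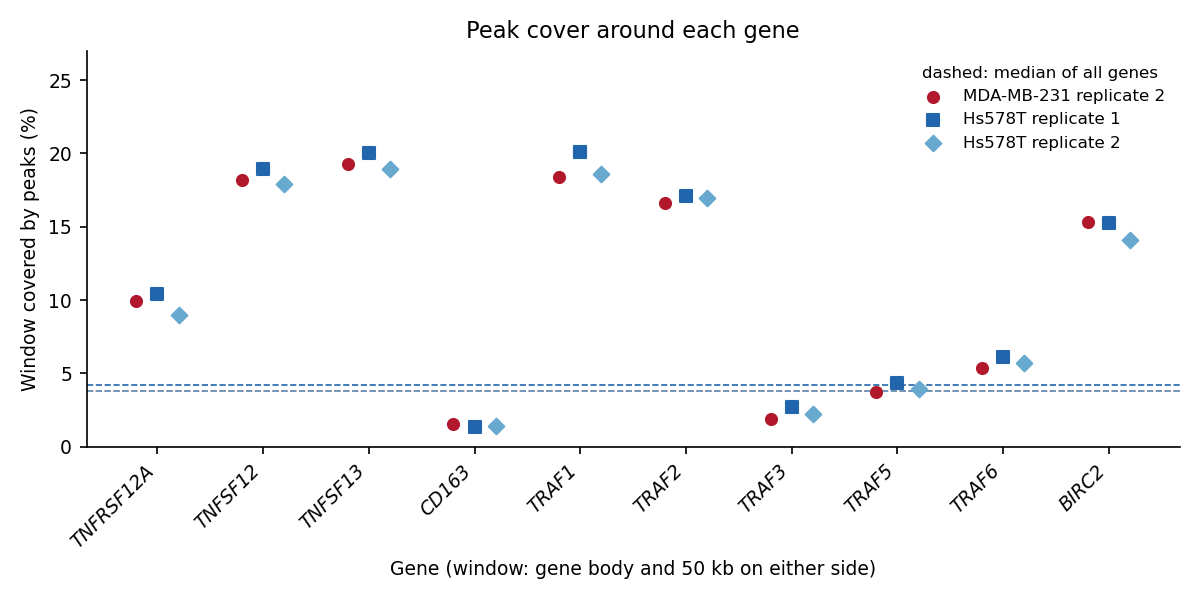
Share of each gene's window (gene body and 50 kb on either side) covered by peaks, in %, with 1 point per large list. Dashed lines are the medians over all protein-coding genes. TNFSF12, TNFSF13, TRAF1, TRAF2 and BIRC2 lie at or above 14.1%, TNFRSF12A between 9.01% and 10.4%, TRAF5 at the median, and TRAF3 and CD163 below it.

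Merged over the lists, the peaks of the windows formed 56 regions. Of these, 40 (71.4%) were called in all 3 large lists, compared with 74.8% of 50576 regions across the genome. Called in 1 list alone were 2 regions in MDA-MB-231 replicate 2 and 4 in each Hs578T list. The 2 Hs578T lists shared 2 regions that the MDA-MB-231 list lacked. The MDA-MB-231 list shared 3 regions with Hs578T replicate 1 alone and 1 with Hs578T replicate 2 alone. The 16 regions missing from at least 1 large list were narrow, between 211 and 1160 bp, and no peak in them exceeded a fold of 3.92. The regions present in all 3 had a median width of 2067 bp, against 560 bp for the others.

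AP-1 letters occurred in 34.8%, 42.0% and 34.7% of the peaks of the windows (95% Wilson intervals 22.7 to 49.2%, 29.4 to 55.8% and 22.9 to 48.7%), compared with 45.8%, 45.9% and 44.3% of all peaks of the same range of widths. The NF-κB motif occurred in 41.3%, 44% and 38.8% (intervals 28.3 to 55.7%, 31.2 to 57.7% and 26.4 to 52.8%), compared with 22.3%, 21.8% and 20.7%. Beside this difference in the NF-κB motif stand differences in width and composition: the median peak of the windows was 1650, 1718 and 1583 bp wide with 59.0%, 55.3% and 54.3% GC, and the median of all peaks 1376, 1399 and 1324 bp wide with 47.2%, 46.6% and 46.5% GC. The part of width and composition in the motif shares was not tested.

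Downstream of the receptor, nearly every gene of a list of 28 other pathway genes had a promoter peak. The count was 28 of 28 in MDA-MB-231 replicate 2 and Hs578T replicate 1, and 27 of 28 in Hs578T replicate 2, beside 58.1%, 58.2% and 56.4% of all protein-coding genes. TAB3, a partner of the kinase TAK1, had none in Hs578T replicate 2 and was at the low percentiles 3.94 and 7.33 in the other large lists. The median fold percentile of the marked genes was 76.1, 64.0 and 71.4. Highest by mean percentile were XIAP, an inhibitor of caspases (97.5), IKBKG, the regulatory subunit of the IKK complex (95.2), and NFKB1, the precursor of p50 (91.5). Lowest of the genes marked in all 3 lists were TAB1 (8.92), MAPK14, which encodes p38α (26.2), and CYLD, a deubiquitinase that restrains NF-κB (28.2).

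Among the groups of that list, the 8 genes of canonical NF-κB signalling had a median percentile of 89.2, 86.4 and 83.7 over their marked members. The 4 non-canonical genes reached 86.8, 75.1 and 77.9, and of these MAP3K14, which encodes NIK, was at 88.3, 89.9 and 91.4. The precursor gene of p52, NFKB2, was at 85.3, 70.6 and 71.4, and RELB at 97.2, 79.5 and 84.5. The remaining non-canonical gene, CHUK, was the lowest of its group in each large list, with a mean percentile of 37.8. Lower medians were found for the 8 genes of JNK and p38 signalling (50.5, 42.2 and 40.1) and for the 3 feedback inhibitors NFKBIA, TNFAIP3 and CYLD (53.9, 50.4 and 46.7). TRAF4, a relative of the adaptors above, was at 83.7, 85.1 and 82.7.

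The whole TNF superfamily was examined in the same way, and the shares of its ligands and receptors were not tested against each other. Promoter peaks were present at 5, 6 and 5 of 18 ligands (27.8%, 33.3% and 27.8%) and at 14, 13 and 12 of 29 receptors (48.3%, 44.8% and 41.4%), beside the 58.1%, 58.2% and 56.4% of all genes. The ligands marked in all 3 large lists were TNFSF9, TNFSF10 (TRAIL), TNFSF12, TNFSF13 and TNFSF18, with mean percentiles of 39.7, 64.6, 5.26, 48.3 and 28.5. TNFSF15 had a weak peak in Hs578T replicate 1 only (fold 2.73), and the other 12 ligands, TNF itself among them, had none.

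TNFRSF12A had the highest mean percentile of the 29 receptors (99.9). TNFRSF1A, the main TNF receptor of most cells, followed at 93.0, and TNFRSF6B, a soluble decoy receptor, at 78.2. The lowest receptors marked in all 3 lists were FAS (0.911), TNFRSF11B, which encodes osteoprotegerin (11.9), and TNFRSF14 (23.1). CD40 was marked in MDA-MB-231 replicate 2 and TNFRSF9 in that list and Hs578T replicate 1, and 15 receptors had no promoter peak in any large list.

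**Figure D5:**
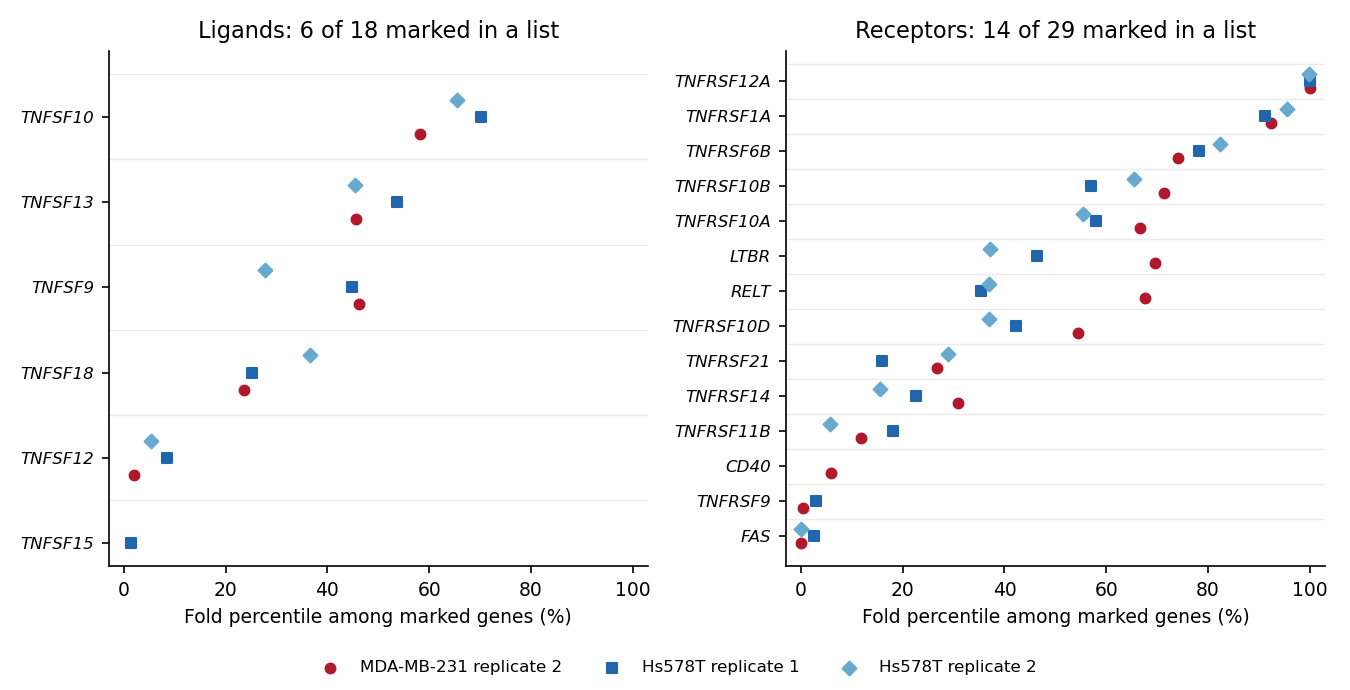
Percentile of the fold enrichment of the strongest promoter peak, in %, for TNF superfamily ligands (left) and receptors (right) marked in at least 1 large list, with 1 point per list. TNFRSF12A is the top receptor and TNFSF12 the lowest of the 5 ligands marked in all 3 lists.

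The genes most like TNFRSF12A in fold and width percentiles over the 3 large lists were looked for among all 11108 genes with a promoter peak in each. HCFC1R1 and THOC6 had the same values because they share its peak. The next were CAVIN3, a coat protein gene of caveolae, with a mean absolute difference of 0.221 percentile points, and HCFC1 and TMEM187, which share a peak with each other, at 0.281. CAVIN3 was at the fold percentiles 99.9, 99.8 and 99.6 and had a promoter peak of 4721, 4830 and 4738 bp.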

How the data were processed

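H3K27ac ChIP-seq peaks of 4 libraries were analysed, and the sample titles gave the line and replicate number of each. The authors trimmed reads with Trimmomatic, mapped them to hg38 with Bowtie2, called peaks per library with MACS2 with subtraction of input, and dropped blacklisted regions with bedtools. Versions and MACS2 options are not given in the sources used here. The 9 columns of the deposited lists match what MACS2 writes in broad mode, which is therefore inferred. Per peak, the deposited lists give a score, a fold enrichment (a ratio over background), and −log10 p-values and q-values. Because input was subtracted, peaks depend on the input libraries too, and weak peaks move with depth, which is unknown.

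Genes and start sites (Ensembl canonical transcripts) came from GENCODE release 44 on assembly 38. All sequence names of the lists were found in the hg38 genome sequence. Of genes with a repeated symbol 1 entry was kept (8 dropped). A gene was marked if a peak came within 1 kb of its start, with at least 1 bp inside that distance, and wider windows were the gene body and 50 kb on either side. Neighbours are named where they share a gene's promoter peak or hold the strongest peak of its window. Of other lists, the 3 highest and the 3 lowest genes by mean percentile are named, and for TNFRSF12A the 5 most similar genes. Further neighbours, genes and peaks named beside these were chosen after their values were seen. Python 3.11.15, pandas 2.3.3, numpy 2.4.6 and scipy 1.17.1 were used, and the interval and motif functions were tested on simulated data. Wilson intervals (95%) reflect counting error alone. The genes and lists were chosen with earlier results of these data known. Alternatives were windows of 500 bp and 2.5 kb, all basic transcript starts, q of at most 0.01, the strongest 50% of peaks, an overlap of 500 bp, flanks of 10 and 100 kb, merging within 1 kb, other measures for ranking, and leaving out each replicate. No column of per-sample values was left without a sample.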

Additional observations from a re-analysis of the deposited data

How the results depend on the processing

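Of 137 recomputed values of 19 results, 106 stayed within the spread between replicates or, for counts, within 1.5 times, 31 moved and 0 reversed. Part of the 106 could not move. MDA-MB-231 replicate 1 has no peak in the windows, so leaving it out cannot change the ratio, percentiles, motif share or shared regions. Merging within 1 kb left the median cover and the number of shared regions the same, which does not mean that the cover of each window stayed the same. For MDA-MB-231, which has 1 list of use, the SD of the Hs578T lists stood for the spread. Means over the MDA-MB-231 lists rest on 1 library: without replicate 1 or replicate 2, the marked genes ranged from 0 to 9 of the 10, from 0 to 28 in the pathway, from 0 to 5 among ligands, from 0 to 14 among receptors, and the median cover of the windows from 0 to 12.6%. The receptor to ligand ratio of fold (13.2 in MDA-MB-231 replicate 2, 10.3 in Hs578T) became 98.0 and 62.4 for −log10 q, and 7.94 in Hs578T for width. The percentile of TNFRSF12A (99.9 in both lines) became 91.0 and 90.9 by width, 99.9 in MDA-MB-231 by −log10 q and 99.8 in Hs578T among all peaks. That of TNFSF12 (1.95 and 6.92) became 13.3 and 24.9 among all peaks. Median cover in Hs578T (12.2%) and over both MDA-MB-231 lists (6.31%) became 8.59% and 4.19% with flanks of 100 kb, and 9.71% and 5.06% with the strongest 50% of peaks. The share of peaks with AP-1 letters (34.8% and 38.3%) became 17.4% and 13.1% in the central 500 bp and 40.9% and 44.7% with flanks of 10 kb, and in MDA-MB-231 40% with the strongest 50%. The 40 regions in all 3 large lists became 19 with flanks of 10 kb, 24 with the strongest 50% and 0 when all 4 lists were required. TNFSF12 and TRAF5 lost their promoter peak in all 3 large lists, and TRAF3 in MDA-MB-231 replicate 2 and Hs578T replicate 2, when only the strongest 50% of peaks were kept. With an overlap of 500 bp, TNFSF12 lost it in MDA-MB-231 replicate 2 and TRAF6 in Hs578T replicate 2. Where a cause is not given by the setting itself (fewer peaks, shorter or longer windows), the cause was not tested. No paired analysis was possible because no result comes from a test and 1 MDA-MB-231 list holds no peak of these genes.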
